A study of Homo sapiens with 9 samples.

Results

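The untreated cells of the series, the 3 arrays titled wild type out of 9, were used to describe what HEK293 cells expressed before MOF was raised or lowered. Every gene on the array was ranked by its mean log2(signal + 1) over these 3 arrays. A gene with several probe sets was represented by the probe set of highest wild type mean, which gave 19775 genes. The 3 wild type samples were HEK293 cells with no treatment, grown in a standard serum medium. The other 6 samples, from the same line in the same medium, were 3 samples transfected with a plasmid encoding human MOF and 3 given small interfering RNA against MOF, the acetyltransferase of lysine 16 on histone H4. No transfection control was among the 9 samples, and the effects of transfection and of MOF cannot be told apart. The labels do not say that the replicates of a group were separate cultures, and the spread between them may be technical.

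HEK293 is an established line made by introducing sheared adenovirus DNA into cultured human embryonic kidney cells. Such primary cultures hold epithelial, mesenchymal, endothelial and neural cells, and the line is known to contain neurofilament proteins next to vimentin and simple keratins. It is widely used as a host for transfected genes, so which receptors, transporters and signalling proteins it makes by itself is of practical use.

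The wild type signals ran from 1.24 to 17.38 on the log2 scale, with a median of 9.23, a signal of 599. The brightest 10% of genes had signals from 9345, and the lowest 25% lay under 67.9. Olfactory receptors, which are mainly genes of sensory neurons, served as a measured background. The reference level of an array was the 95th percentile of its 82 olfactory receptor genes, which came to signals of 148, 187 and 158 on wild type replicates 1, 2 and 3. Of the 19775 genes, 11828 (59.8%) lay above this level on all 3 wild type arrays, 6152 on none and 1795 on 1 or 2. The share grew with the number of probe sets from which the brightest was taken, from 42.5% of genes with 1 probe set to 85.6% of those with 4. Rank here is rank of array signal, which depends on how well each probe set binds its transcript, so it is not an order of transcript copies.

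**Figure D1:**
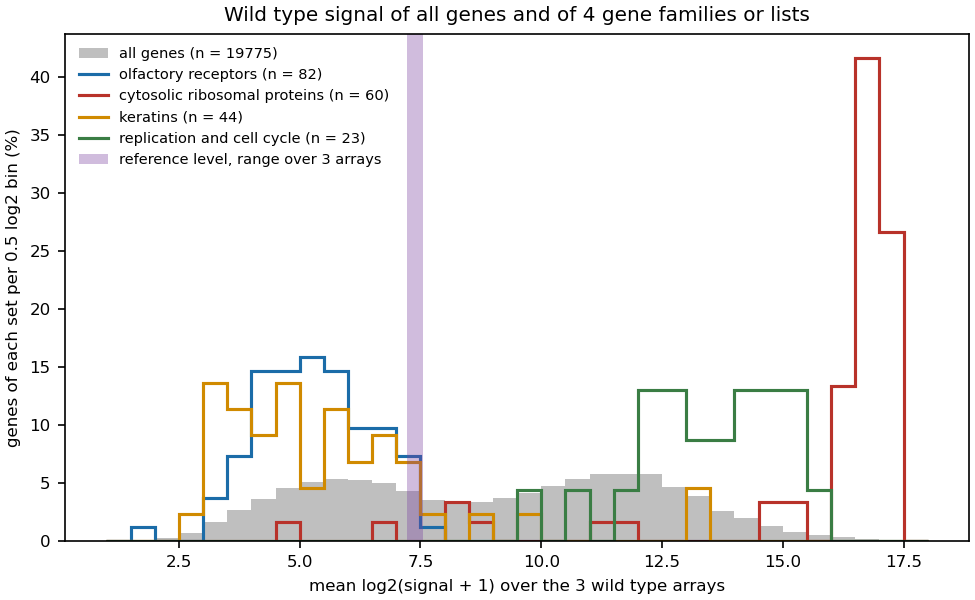
Distribution of mean log2(signal + 1) over the 3 wild type arrays, as the percentage of each set per bin, for all 19775 genes and for 4 families or lists, with a vertical band over the reference level of the 3 arrays, 7.22 to 7.56. Ribosomal proteins lie at the far right, replication and cell cycle genes right of the band, and olfactory receptors and most keratins left of it.

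Signals above the reference level repeated closely between the 3 wild type arrays, and those below it did not. The median SD of log2 signal over the 3 arrays was 0.09 in the top 10% (1978 genes), 0.17 in the other 9850 genes above the reference level and 0.88 in the 7947 genes not above it. Correlations between pairs of wild type arrays over the genes above the reference ran from 0.983 to 0.991, as a description across genes, which are not independent replicates. Wild type replicate 1 stood apart from the other two. Its added poly-A control transcripts (27 probe sets) had a geometric mean signal of 478, against 1060 and 985 on replicates 2 and 3. Among the 4944 genes of the brightest 25%, whose median range over the 3 arrays was 0.21 on the log2 scale, the 10 with the widest range were all lowest on wild type replicate 1. The widest was DNAAF2, a factor of cilium motor assembly, at 2215, 12272 and 15637. For 7 of these 10, and for 74 of the 100 widest, the replicate 1 array was the lowest in each of the 3 groups. The other 9 were HINT3, PHAX, PNRC1, NAF1, NAA50, ZDHHC20, SPART, UBLCP1 and UBBP1. What set the replicate 1 arrays apart was not tested.

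The genes above and below the reference level differed in the sequence just before their start sites, which the ranking did not use. Promoter windows of 250 bases, taken from RefSeq on the assembly GRCh38.p14, were matched by Entrez ID for 13454 of 16517 protein coding genes (81.5%). In these, 6 are shown because they span the pattern. RPS19, INA and SIX2 were bright genes with windows rich in CG dinucleotides. AQP2 and CUBN, mature kidney tubule genes, were not above the reference. KRT10 was bright in spite of a window without CG. Each is written 5′ to 3′ on the strand of the gene and ends at the last base before the annotated start, with CG dinucleotides and any TATAAA in capitals. The windows are chr19:41860005-41860254 (plus strand), chr10:103276888-103277137 (plus), chr2:45009453-45009702 (minus), chr12:49950487-49950736 (plus), chr10:17129812-17130061 (minus) and chr17:40822615-40822864 (minus).
RPS19: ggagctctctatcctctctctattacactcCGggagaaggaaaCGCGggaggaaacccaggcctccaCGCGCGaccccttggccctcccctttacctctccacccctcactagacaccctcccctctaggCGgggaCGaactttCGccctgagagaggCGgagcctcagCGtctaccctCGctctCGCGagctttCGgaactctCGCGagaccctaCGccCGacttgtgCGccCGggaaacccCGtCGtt
INA: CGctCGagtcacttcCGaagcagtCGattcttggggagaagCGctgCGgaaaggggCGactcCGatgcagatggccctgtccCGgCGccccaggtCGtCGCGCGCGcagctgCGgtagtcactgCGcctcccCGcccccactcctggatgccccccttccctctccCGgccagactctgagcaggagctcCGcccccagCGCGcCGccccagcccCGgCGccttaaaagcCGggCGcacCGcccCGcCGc
SIX2: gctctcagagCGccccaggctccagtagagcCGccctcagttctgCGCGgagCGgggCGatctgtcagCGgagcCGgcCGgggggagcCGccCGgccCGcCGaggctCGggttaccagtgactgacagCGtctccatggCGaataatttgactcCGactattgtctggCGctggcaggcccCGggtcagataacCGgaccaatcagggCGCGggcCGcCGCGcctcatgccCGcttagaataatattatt
AQP2: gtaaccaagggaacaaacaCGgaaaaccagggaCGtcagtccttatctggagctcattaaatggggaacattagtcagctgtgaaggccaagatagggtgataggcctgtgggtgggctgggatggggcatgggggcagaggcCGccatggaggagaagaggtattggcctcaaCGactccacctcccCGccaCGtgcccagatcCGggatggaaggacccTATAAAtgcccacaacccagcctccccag
CUBN: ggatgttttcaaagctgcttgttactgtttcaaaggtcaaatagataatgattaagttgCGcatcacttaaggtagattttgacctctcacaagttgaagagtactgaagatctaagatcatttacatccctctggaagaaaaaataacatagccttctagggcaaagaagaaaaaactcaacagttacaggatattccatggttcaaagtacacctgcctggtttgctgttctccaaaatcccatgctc
KRT10: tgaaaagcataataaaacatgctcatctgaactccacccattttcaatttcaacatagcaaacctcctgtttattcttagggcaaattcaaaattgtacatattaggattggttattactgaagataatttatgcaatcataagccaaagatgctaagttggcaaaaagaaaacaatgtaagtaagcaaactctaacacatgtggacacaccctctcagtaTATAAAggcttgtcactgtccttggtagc
The RPS19 window held 23 CG dinucleotides, that of INA 30 and that of SIX2 26. That of AQP2 held 7, that of CUBN 1 and that of KRT10 none. The AQP2 and KRT10 windows each held TATAAA 29 bases before the start.

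Over all matched genes the ratio of observed to expected CG dinucleotides was 0.77 at the median. It was 0.87 in the top 10% (1706 genes), 0.82 in the other genes above the reference (7637 genes) and 0.36 in those not above it (4111 genes). The hexamer TATAAA, searched on both strands, was present in 6.15% of top 10% windows (95% Wilson interval 5.11 to 7.40), in 4.53% of the other windows above the reference (4.09 to 5.02) and in 14.9% of those not above it (13.9 to 16.1), against 7.92% of all windows. By decile of signal its share fell from 18.8% in the dimmest to 3.27% in the ninth and was 6.15% in the brightest. With the hexamer kept to a start 40 to 20 bases before the gene, the shares were 2.11%, 1.24% and 7.44%, against 3.25% of all. GGGCGG, the core of the Sp1 motif, was in 68.2%, 69.7% and 37.6% of windows, against 59.7% of all. The ETS family motif CCGGAAG was in 21.3%, 15.3% and 4.35%, against 12.7% of all. CCAAT differed less, at 38.9%, 34.6% and 32.2%, against 34.4% of all. Both strands were searched for each motif, TGACGTCA of the CREB family is its own reverse complement, and its shares were 3.28%, 3.02% and 1.12% against 2.48% of all. A match is a description of letters and not of a bound site.

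**Figure D2:**
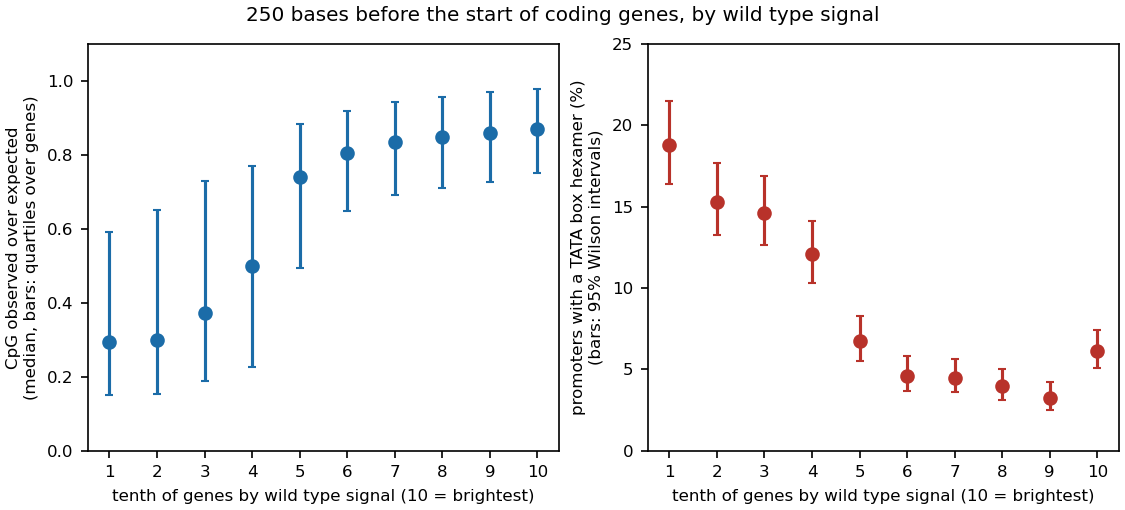
On the left, median ratio of observed to expected CG dinucleotides in the 250 bases before the start of coding genes, by decile of wild type signal, with quartiles as bars, and on the right, the percentage of the same windows with a TATA box hexamer, with 95% Wilson intervals. The ratio rises from 0.29 to 0.87 across the deciles, and the hexamer share falls from 18.8% to 3.27% before 6.15% in the brightest decile.

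Ribosomal protein genes led the wild type ranking. RPS19, of the small subunit, was first at 157072, 174846 and 181682 on the 3 arrays, followed by RPL39 and RPS6. Of the 25 brightest genes 19 encoded ribosomal proteins, and they included RPL37A, RPS10, RPL24, RPS16, RPS23, RPL7, RPS4X, RPL8, RPL41, RPL31, RPS14, RPS15, RPL10A, RPS18, RPLP1 and RPL30. The other 6 were COX1 (Entrez 4512), the mitochondrially encoded subunit of cytochrome c oxidase, the alpha tubulin TUBA1B, the elongation factor EEF1A1, TPT1, the ubiquitin gene UBB and the mitochondrial chaperonin HSPD1. RPS19 was the brightest on each of the 3 arrays, while neighbours in the order of the 25 were not separated beyond their spread. Signals of the 25 ran from 114684 to 181682, rank 1 and rank 25 were 0.45 apart on the log2 scale, and none of the 24 gaps between neighbours exceeded the pooled SD of the pair. On each single array 24 of the 25 were again among the 25 brightest. Probe sets this bright can approach saturation, which compresses differences, and ribosomal protein genes have many processed copies that their probes may also read.

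Whole machineries shared this high level. Of 60 cytosolic ribosomal protein genes, 58 were above the reference and 53 in the top 10%. All 75 mitochondrial ribosomal protein genes were above it and 39 in the top 10%, led by MRPL3 (41779 ± 1185, mean ± SD over the 3 arrays, as throughout). Of 71 genes of the respiratory chain and ATP synthase, 65 were above and 63 in the top 10%, among them COX7C and ATP5PB. All 8 subunits of CCT, the chaperonin that folds actin and tubulin, were above, 7 of them in the top 10% and the eighth, CCT6B, at 321 ± 66.4. CCT4 was the brightest at 69166 ± 2370.2. Of 34 proteasome genes 31 were above and 26 in the top 10%, with PSMB1 at 58599 ± 76.4. The 3 inducible catalytic subunits of the immunoproteasome differed, with PSMB10 at 1438, 1207 and 1269.8, PSMB9 just above the reference at 245, 203 and 218 and PSMB8 not above it at 10.7, 3.8 and 4.6. All 19 HNRNP genes, which package and splice nascent transcripts, were above the reference and 17 were in the top 10%. Of 58 translation factor genes 56 were above and 34 in the top 10%, EEF2 among them at 101516 ± 9966.

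Glycolysis was expressed throughout. All 18 listed genes were above the reference and 11 were in the top 10%. LDHB and LDHA, the subunits of lactate dehydrogenase, were at 110815 ± 2209 and 68529 ± 957. GAPDH was at 104623 ± 5530.2, the enolase ENO1 at 65974 ± 3583 and the aldolase ALDOA at 56896 ± 5857. All 14 genes of the tricarboxylic acid cycle were above and 10 in the top 10%, with the malate dehydrogenase MDH2 at 51039.8 ± 4822. Gluconeogenesis, which mature proximal tubule carries out, was present only in part. Of its 6 genes the mitochondrial PCK2 (2267 ± 370.2) and pyruvate carboxylase PC (1058 ± 47.1) were above the reference, and 4 were not. The cytosolic PCK1 was at 179, 65.7 and 203, and FBP1, fructose-bisphosphatase, at 32, 138 and 58.4.

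Genes of proliferation were also bright. Of 17 genes of serine, folate and nucleotide synthesis 16 were above the reference and 13 in the top 10%, led by the thymidylate synthase TYMS (49698 ± 1829.8), PAICS of purine synthesis (43551 ± 2897) and the ribonucleotide reductase subunits RRM2 and RRM1. The exception was SHMT1, the cytosolic serine hydroxymethyltransferase, at 107, 118 and 92.7. All 23 replication and cell cycle genes were above and 14 in the top 10%. PCNA, the sliding clamp, was at 46801 ± 4678, the kinase CDK1 at 42899 ± 2784, and MCM6 and MCM2 of the replicative helicase at 37193 ± 2545 and 31396 ± 3745. The 6 inhibitors of cyclin dependent kinases on the array were all above the reference too. CDKN2A, which encodes p16 and ARF, was the brightest at 27266, 25446 and 24026, percentile 97.3, followed by CDKN1B (10043 ± 1367) and CDKN1A, or p21 (4654 ± 419).

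**Figure D3:**
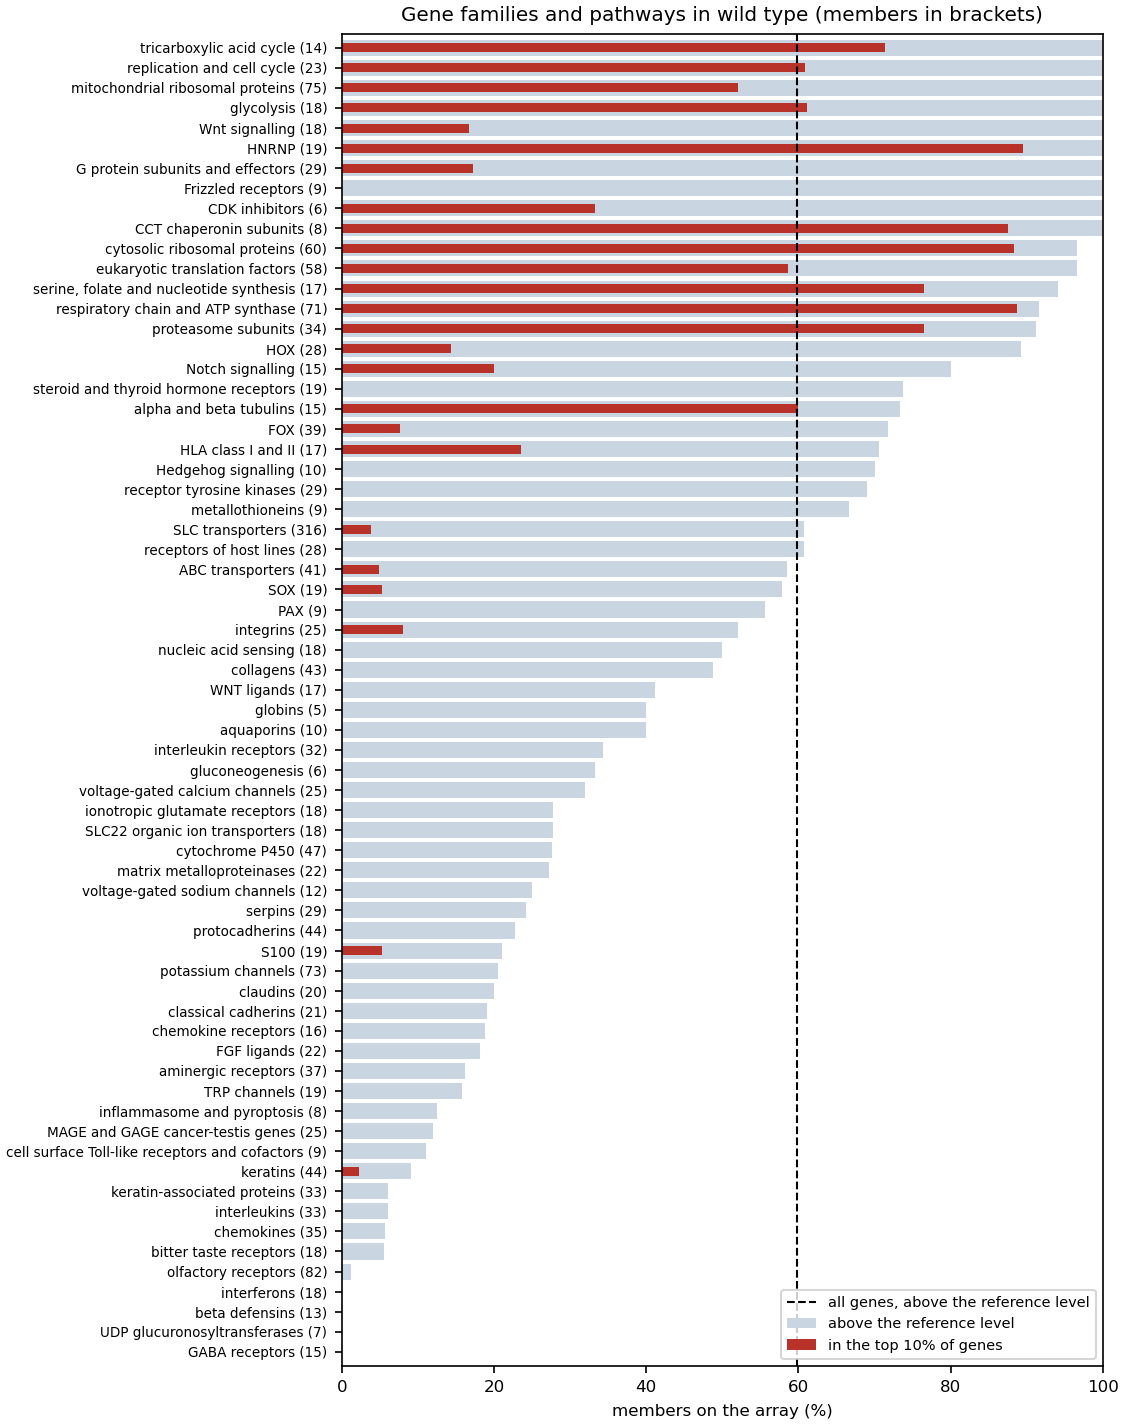
Percentage of the members of each family or pathway above the reference level (wide bars) and in the top 10% of genes (narrow bars) in wild type, with the number of members in brackets and the share of all genes above the level, 59.8%, as a dashed line. Core metabolic and translation families lie near 100%, and the ion channel, cytokine, chemokine and keratin families lie under the line, while receptor families lie on both sides of it.

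Marker genes of 23 tissues and cell types were then compared with this background. They numbered 294, of which 262 were on the array under 1 symbol, and 98 of these (37.4%) were above the reference level, against 59.8% of all genes. The early kidney list stood at 10 of 13. The adrenal cortex list stood at 0 of 10. Each count is a description, since lists were not tested against each other.

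**Figure D4:**
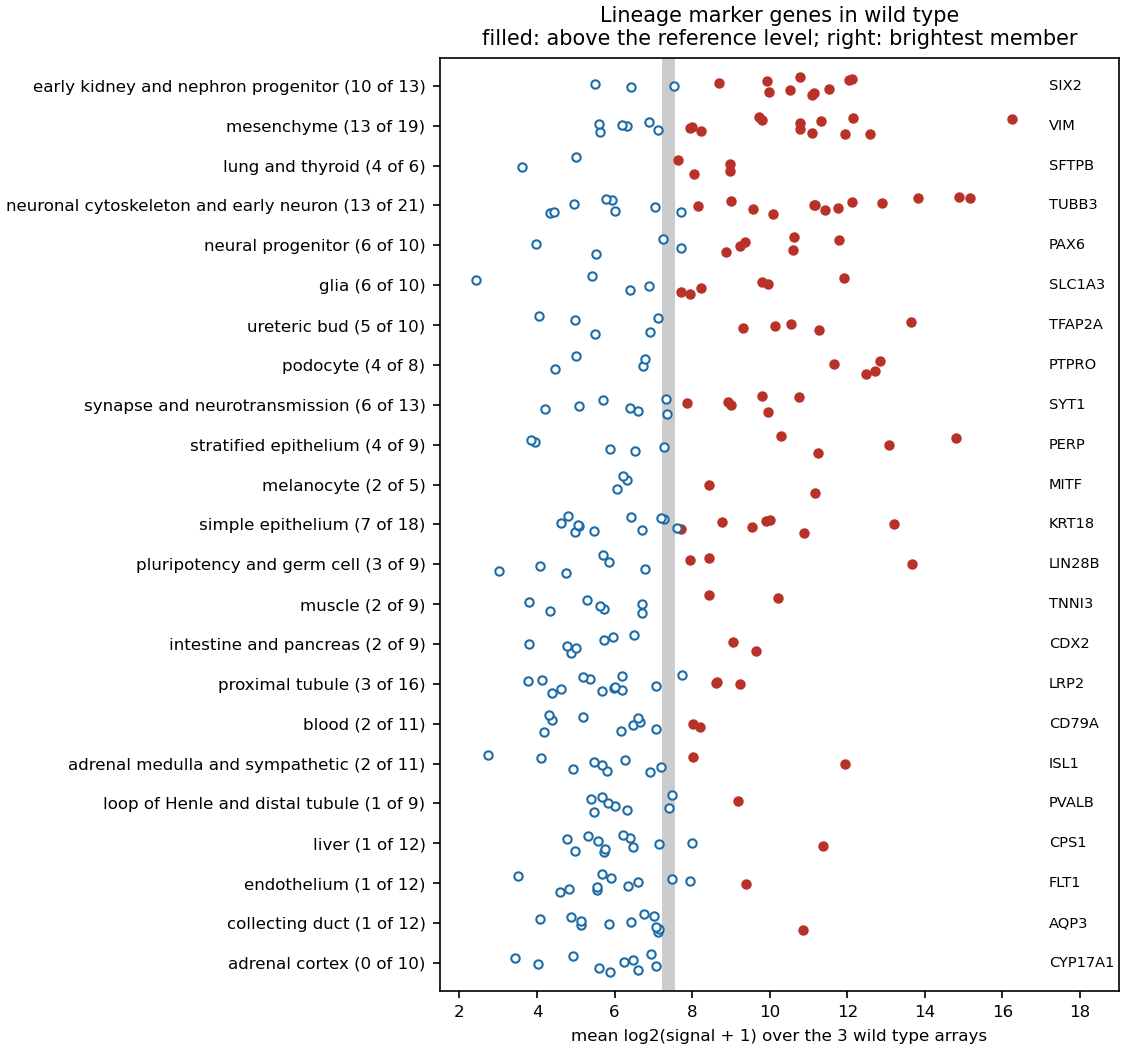
Mean log2(signal + 1) over the 3 wild type arrays of the 262 marker genes, 1 row per list, filled where the gene was above the reference level on all 3 arrays, with the vertical band at the reference level and the brightest member named. Early kidney, mesenchyme and neuronal cytoskeleton rows hold many filled points, and adult kidney, adrenal, liver and endothelium rows hold few.

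Transcription factors of the embryonic kidney were expressed. SIX2, which maintains nephron progenitors and whose promoter window held 26 CG dinucleotides, was at 3981, 4596 and 4751, percentile 79.4, and SALL1, a zinc finger factor of the same cells, at 3900.2, 4256 and 4547. Both were far above the reference on each array. HOXD11, a posterior HOX gene needed for kidney growth, was at 3029.8, 2949 and 2855. CITED1, BMP7, EYA1 and EMX2 lay between 2299 ± 443 and 1005 ± 65.9. WT1, the Wilms tumour factor, was at 1779, 1620.2 and 1849.7 with 1 of its 2 probe sets above the reference. The paired box genes were dimmer. PAX8 was at 768, 1139.7 and 1075, but only 1 of its 8 probe sets was above the reference, and the mean over its probe sets was not. PAX2 was at 369, 389 and 486, with 1 probe set of 2. EYA1 was above only through a probe set that is not specific to a single transcript. Of the 3 members not above, MEOX1 was near the reference (212, 136 and 213), and LHX1 (69.9, 96.8 and 91) and OSR1 (80.7, 122 and 8.3) were below it on each wild type array. The median percentile of the 13 was 61.1, against 50.0 for all genes.

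Of the ureteric bud, the epithelial outgrowth that becomes the collecting system, 5 of 10 markers were above the reference. TFAP2A, a factor also used in neural crest and skin, was in the top 10% at 13194, 12634 and 12692. GATA3 was at 2477 ± 326, SOX9 at 1520.1 ± 313, SOX8 at 1119 ± 74.4, and RET, the receptor for GDNF, at 611, 651 and 629. WNT11 (224, 52.4 and 220.2) lay above the reference on 2 arrays and ETV5 (81.8, 206 and 101) on 1, and ETV4, TFAP2B and WNT9B were not above it. Of 8 podocyte genes, 4 were above. PTPRO, a receptor phosphatase, was at 8937, 6045 and 7312, the adaptor CD2AP at 6713 ± 555, the actin crosslinker ACTN4 at 5762 ± 137 and PODXL, podocalyxin, at 3279 ± 595. The slit diaphragm gene NPHS1, nephrin, was at 94.2, 9.5 and 9.9, and SYNPO, TCF21 and PLA2R1 were not above the reference either. CD2AP and ACTN4 are also expressed in many other cells.

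Genes of the mature nephron were mostly not above the reference. Of 16 proximal tubule markers 3 were. LRP2, megalin, was the brightest at 620.3, 565 and 626, percentile 50.1, followed by the dicarboxylate transporter SLC13A3 (290.1, 478 and 448) and the protease MME (371, 365 and 435). CUBN, cubilin, the partner of megalin in protein uptake, whose promoter window held 1 CG, was at 16.8, 24.4 and 30.9, so the 2 receptors lay on opposite sides of the reference. The phosphate transporter SLC34A1 (30.9, 22.2 and 63.7), the organic anion transporters SLC22A6 (13.2, 6.7 and 48.8) and SLC22A8 and the water channel AQP1 (13.1, 90.2 and 104) were not above it. SLC5A2, a glucose transporter, reached 187, 342 and 147 and exceeded the reference on 2 arrays. Of 9 markers of the loop of Henle and distal tubule only PVALB, parvalbumin, was above, at 484, 611 and 670.4. SLC12A1 was at 106, 18.2 and 35.7 and SLC12A3 at 81.2, 10.4 and 142, and both salt transporters stayed under the reference. Of 12 collecting duct markers only the water channel AQP3 was above, at 1855, 1858 and 1868. The vasopressin regulated AQP2 was at 108, 96.1 and 254, its receptor AVPR2 at 18.3, 52.6 and 41.5, and the sodium channel subunit SCNN1A at 16.8, 23 and 102. Of the 10 aquaporins on the array AQP3, AQP11, AQP4 and AQP6 were above the reference.

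Adrenal genes were also examined, since the kidney of an embryo lies beside the adrenal gland and an adrenal source of the line has been discussed. None of the 10 adrenal cortex markers was above the reference. NR5A1, the factor that sets steroid cell identity, was at 4.6, 45.2 and 3.9, the cholesterol side chain enzyme CYP11A1 at 110.0, 21.9 and 79.7, and the brightest, CYP17A1, at 99.8, 159 and 152. Of 11 markers of adrenal medulla and sympathetic neurons 2 were above. ISL1, a LIM homeodomain factor that is also used in other neurons and in heart progenitors, was at 4095, 3909 and 3778, and the vesicular transporter SLC18A2 at 285, 215 and 281. SLC18A2 lost the call under 3 alternative settings, among them the mean over probe sets. The catecholamine enzymes TH (4.3, 4.7 and 8.7), DBH (14.1, 127 and 13.7) and PNMT (50.5, 223 and 38.6) were not above the reference on all 3 arrays, nor were PHOX2A and CHGA.

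Genes of the neuronal cytoskeleton were among the brightest markers. TUBB3, the neuronal beta tubulin, was at 38664, 36400.0 and 34397, percentile 98.4, and UCHL1, a neuronal ubiquitin hydrolase, at 31514, 29209.8 and 29579.9. The neurofilament subunits NEFL and NEFM were at 7563, 7692 and 7666 and 5039, 4224 and 4149.6, and INA, alpha-internexin, at 4035, 3293 and 3206. All 3 lay above the 75th percentile of genes, while the heavy subunit NEFH was at 68.6, 19.7 and 19.6, under the reference on each array. TUBB2B was at 9678, 15113 and 20455, with wild type replicate 1 the lowest. The probe set of TUBB3 can also read related tubulin transcripts. Further members above the reference were ENO2 (2848 ± 809.9), the tau gene MAPT (2333 ± 364), the adhesion molecule NCAM1 (2259.8 ± 220.5), CRMP1 (1116 ± 276), GAP43 (763 ± 71.1), PRPH, peripherin (514 ± 30), and MAP2 (286 ± 35.7). In all 13 of 21 (61.9%) were above, near the 59.8% of all genes, and the median percentile of the list was 52.7.

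The other 8 of the neuronal list were not above the reference. DCX, doublecortin, of migrating neurons, was at 13.1, 81.2 and 6.2, STMN2 at 36, 94 and 45.9, and the neuronal RNA binding proteins ELAVL3, ELAVL4 and RBFOX3 at 21.6 ± 7.67, 66.2 ± 19.4 and 87.5 ± 65.4. L1CAM was at 123, 105 and 172, above the reference on 1 array, and DPYSL3 at 257, 270.4 and 134. Of 13 genes of the synapse 6 were above, led by the vesicle calcium sensor SYT1 (1647, 1893 and 1650.5) and GAD1, which makes GABA (925, 1074 and 994). VAMP2, SLC17A7, STX1A and SNAP25 were dimmer, between 895 ± 109 and 238 ± 54.1. Synaptophysin, SYP, was at 190.3, 136 and 161, around the reference, and SYN1 at 117, 31.6 and 36.3.

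Of 10 neural progenitor genes 6 were above the reference, near the 59.8% of all genes. The median percentile of the list was 48.8, against 50.0 for all genes. PAX6, of eye and forebrain, was at 4125, 3175 and 3422, SOX2 at 1340.2, 1733 and 1737 and LHX2 at 1417, 1618 and 1637. OTX2, NES and HES5 were dimmer, from 668 ± 118 to 471 ± 84.2. The glial list had 6 of 10 above, again near the share of all genes, and its median percentile was 40.7. It was led by the glutamate transporter SLC1A3 (3906 ± 577) and the factors OLIG1 (852, 999.7 and 1135) and OLIG2 (1029.8, 847 and 804). GFAP, of astrocytes, was at 59.4, 115 and 85.9 and S100B at 5.4, 5.9 and 2.5. LIN28B, an RNA binding protein of embryonic cells, was in the top 10% at 12553, 13188 and 13182, while its relative LIN28A was at 65.9, 7.6 and 7.4 and the pluripotency factor NANOG at 14.1, 82.3 and 157. In the pluripotency and germ cell list 3 of 9 (33.3%) were above, the others being UTF1 and SALL4. The call of SALL4 was lost under 2 alternative reference levels.

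Epithelial genes were split. Of 18 simple epithelium markers 7 were above the reference. The simple keratin KRT18 was at 10121, 9741 and 8436, in the top 10%, and its partner KRT8 at 972, 1014 and 878. Both are read by probe sets that can also bind their many pseudogenes. CDH1, E-cadherin, was at 1836, 1720.5 and 2121, EPCAM at 589.9, 928 and 747, MAL2 at 1036 ± 177, KRT7 at 446 ± 131 and the polarity gene CRB3 at 213 ± 52.8. The epithelial transcription factor GRHL2 (8.1, 100.2 and 38.2) and the epithelial splicing regulator ESRP1 (54.6, 16.9 and 37.2) were dim. So were KRT19 (73.9, 16.3 and 10.6), CLDN4 (70.9, 75.6 and 14.4) and the protease ST14 (42.5, 35.1 and 12.8), and OVOL1, ELF3, CLDN3, CLDN7, RAB25 and PRSS8 were not above either. Of all 44 keratins 4 were above the reference, KRT18, KRT10, KRT8 and KRT7. Of 9 stratified epithelium markers PERP (26050.0, 30118 and 30121), KRT10 (7594, 8105 and 10396), DSC3 (2451 ± 425) and SFN (1255 ± 211) were above, while the basal keratins KRT5 and KRT14 were at 13.9 ± 4.26 and 16.4 ± 11. The KRT10 promoter printed above, with TATAAA and no CG, was thus that of a gene at percentile 88.9, and 51.7% of the 29 keratin windows matched held the hexamer.

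The mesenchyme list held the brightest lineage marker, VIM, and its share above the reference was near that of all genes. VIM, the intermediate filament vimentin, was at 78766, 79171 and 76836, percentile 99.5. CDH2, N-cadherin, was at 5221, 6499.9 and 6881 and the repressor ZEB1 at 4537, 4432 and 4521. In total 13 of 19 members (68.4%) were above the reference, against 59.8% of all genes, and 1 was in the top 10%. Those above included ACTA2 (3931 ± 415), TWIST1 (2578 ± 326), COL1A1 (2175 ± 151), FN1, fibronectin (1769 ± 122), and SNAI2 (1764 ± 207). COL1A1 was above the reference, but COL1A2, which encodes the other chain of the same collagen, was at 80, 133 and 10.1. SNAI1 was high on 1 array only (289, 34.8 and 10.1). THY1, PDGFRB, DCN and POSTN were not above. Of 21 classical cadherins only CDH2, CDH1, CDH12 and CDH22 were above, and of 20 claudins CLDN12, CLDN15, CLDN1 and CLDN19.

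**Figure D5:**
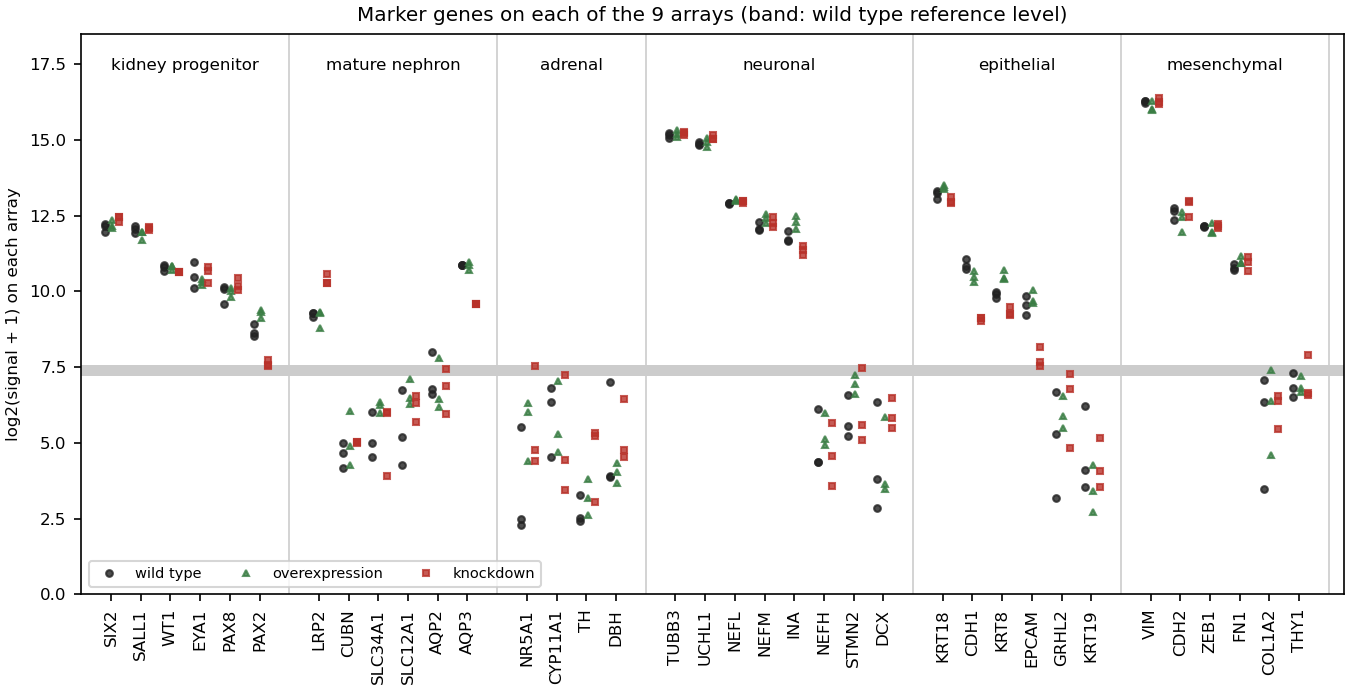
Log2(signal + 1) of marker genes on each of the 9 arrays, 3 per group, with wild type as circles, overexpression as triangles and knockdown as squares, and the wild type reference level as a band. SIX2, SALL1, NEFL, NEFM, INA and VIM lie above the band in all 3 groups, and CDH1, EPCAM, AQP3 and PAX2 lie lower and LRP2 higher in the knockdown arrays.

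Other tissues gave isolated genes. Of 12 liver markers only CPS1, the urea cycle enzyme carbamoyl phosphate synthetase, was above the reference, at 2654, 2668 and 2651, while albumin, ALB, was at 10, 18 and 146. Of 12 endothelial markers only FLT1 was above (628, 724 and 670.4), and CDH5, VE-cadherin, was at 6.3, 51.2 and 35.2. In the blood list CD79A and HBB were above, 2 of 11, and PTPRC, CD45, was at 67.2, 54.2 and 11.7. TNNI3 and TTN were above among 9 muscle markers, and CDX2 (798 ± 59.4) and LGR5 among 9 of intestine and pancreas. Of the melanocyte list MITF (2291 ± 153) and PMEL were above, 2 of 5. The short list of lung and thyroid had SFTPB, NKX2-1, FOXE1 and SFTPC above, 4 of 6, with SFTPB first by rank at 508 ± 107. SFTPB, SFTPC, FOXE1, CD79A, HBB and TTN each lost the call under 1 or more alternative settings, such as the mean over probe sets.

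Of 28 HOX genes, which set position along the body axis, 25 (89.3%) were above the reference, against 59.8% of all genes. In the top 10% were 4 (14.3%), against 10.0% of all genes. HOXC6 was at 15883, 19725 and 21162, HOXD10 at 16739, 14531 and 15136, HOXD13 at 11426 ± 1761 and HOXB6 at 10146 ± 745. The FOX family had 28 of 39 (71.8%) above, led by FOXD1, a marker of kidney stroma, at 14639, 13052 and 12428. Of 19 SOX genes 11 (57.9%) were above, near the share of all genes, with SOX4 in the top 10% at 17846 ± 500.0. The PAX family had 5 of 9 (55.6%) above, also near that share, namely PAX6, PAX3 (1781 ± 145), PAX8, PAX9 and PAX2. In Wnt signalling all 18 genes measured of 20 listed were above the reference. CTNNB1, beta-catenin, was at 22686 ± 4559, TCF7L2 at 13804 ± 1718 and WLS, which carries Wnt proteins to the surface, at 12118 ± 113. All 9 Frizzled receptors were above, FZD2 brightest at 4173 ± 691, whereas 7 of 17 WNT ligands (41.2%) were, with WNT5A at 7377 ± 368. In Notch signalling 12 of 15 (80.0%) were above, and the target gene HEY1 was at 46749, 50552 and 47338, percentile 98.9, next to NOTCH2 (9950.2 ± 527) and HES1 (4593 ± 373). In Hedgehog signalling 7 of 10 (70.0%) were above, among them the receptor PTCH1 (4713 ± 755) and GLI3, while the ligands SHH, DHH and IHH were not.

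For a host line, the receptors and sensors present before transfection were of interest. All 29 G protein subunits and effectors were above the reference, GNAS brightest at 96339.9 ± 4449.7. Of 28 receptors listed as native to common host lines 17 (60.7%) were above, near the 59.8% of all genes, and none was in the top 10%. Their median percentile was 42.8. The adenosine receptor ADORA2B was at 4459, 4033 and 3932, the lysophosphatidic acid receptor LPAR3 at 2864, 2985 and 2772, the thrombin receptor F2R at 2479, 2499.8 and 3424 and CXCR4 at 1825, 2410.1 and 2309.7. Of 37 aminergic receptors 6 were above, the brightest being ADRA2C at 548 ± 156. Receptor tyrosine kinases had 20 of 29 above, with MET, the receptor of hepatocyte growth factor, at 8311, 9948 and 7284, then FGFR2 (4404 ± 103), FGFR3 (4125 ± 896) and IGF1R (3322 ± 866). Of 19 steroid and thyroid hormone receptors 14 were above, the glucocorticoid receptor NR3C1 at 7315 ± 541. Potassium channels had 15 of 73 above, led by KCNK1 (4711 ± 280.2), and voltage-gated sodium channels 3 of 12, none brighter than SCN4B (414 ± 111). No GABA receptor of 15 was above. Of 316 solute carriers 192 (60.8%) were above, again near the share of all genes, and 12 in the top 10%, led by the ADP/ATP carrier SLC25A5.

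Sensing of nucleic acids was present in part. Of 18 genes 9 were above the reference, the double-stranded RNA kinase EIF2AK2 (5800.2, 6218 and 6162) brightest, then IRF3 (4797 ± 606), TBK1 (4472 ± 146), MAVS (3408 ± 360.4), MYD88 (1531 ± 58) and IFIH1 (505 ± 57.3). RIGI, IRF7 and TICAM1 were also above. The 9 not above on all 3 arrays included the cytosolic DNA sensor CGAS at 122, 210.0 and 266 and its adaptor STING1 at 125, 339.8 and 214. Both exceeded the reference on wild type replicates 2 and 3 and missed it on replicate 1. Also among the 9 were TLR3, TLR7, TLR8 and TLR9. Of 9 surface Toll-like receptors and cofactors only the adaptor TIRAP was above, and of 8 inflammasome genes only NLRP1. None of 18 interferons was above, 2 of 33 interleukins were (IL12A and IL23A), and 2 of 35 chemokines (CXCL16 and CXCL12). Among HLA genes 12 of 17 were above, HLA-C (43322 ± 1043) and HLA-B (35009.6 ± 4028) brightest.

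Most members of families of other specialised cells were not above the reference, though some of these families held single bright genes. None of 7 UDP glucuronosyltransferases and none of 13 beta defensins was above the reference, and 1 of 18 bitter taste receptors was (TAS2R14). By construction few olfactory receptors could exceed it, and 1 of 82 did. Of 33 keratin-associated proteins, structural proteins of hair, 2 were above. One of them, KRTAP19-1, was at 6123, 6124 and 6130.0, percentile 84.6, and the other, KRTAP19-3, at 226 ± 47.2. KRTAP19-1 has 1 probe set here, and which transcript it reads was not tested. Of 19 S100 genes S100A10 (19312 ± 1236), S100A13, S100A11 and S100A16 were above, and S100A6 was at 104, 48.8 and 7.8. Of 47 cytochrome P450 genes 13 were above, CYP1B1 brightest at 4862 ± 578.

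The wild type pattern was largely present in the transfected cells. Of the 11828 genes above the reference in wild type, 11062 (93.5%) were above it on all 6 transfected arrays and 11 on none, and 98 genes not above it in wild type were above it on all 6. Of the 98 lineage markers above in wild type 80 were so on all 6. MOF itself is encoded by KAT8, whose wild type signals were 2909.5, 3797 and 3249, percentile 74.3. It stood at 4594, 4727 and 4763 on the overexpression arrays and 432, 706 and 517 on the knockdown arrays, with no overlap of either group with wild type. The knockdown difference passed the test (log2 -2.61, SE 0.17, limma adjusted p = 4.72e-05) and the overexpression difference did not (log2 0.51, SE 0.17, limma adjusted p = 0.259).

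Differences from wild type were tested with limma over all 9 arrays, on 12016 genes with a tested probe set. After overexpression 76 genes (0.632%) passed at an adjusted p of 0.05, and after knockdown 2340 (19.5%), of which 792 (6.59%) were higher and 1548 (12.9%) lower. The 76 were 54 higher and 22 lower. With the replicate number as a block, the knockdown count was 4026 and the overexpression count 589, 300 higher and 289 lower, and with a term for replicate 1 the overexpression count was 634, 316 higher and 318 lower. Dropping wild type replicate 2 or 3 left 19 or 30 genes called after overexpression, and dropping overexpression replicate 1 or 3 left 44 or 18. The knockdown count was 1262 and 1548 without wild type replicates 2 and 3, and 1376 and 1295 without knockdown replicates 2 and 3. Of the 262 lineage markers 100 passed the filter on low signal and were tested, and 27 of them were called after knockdown, 13 higher and 14 lower. The share of markers called was thus 27 of 100 against 19.5% of all genes. It was 38 of 100 against 33.5% of all genes with the block, and 16 of 100 against 10.5% without wild type replicate 2.

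The epithelial adhesion genes CDH1 and EPCAM were lower after knockdown. CDH1 was at 513, 556 and 557 on the knockdown arrays against 1836, 1720.5 and 2121 in wild type (log2 -1.80, SE 0.14, limma adjusted p = 0.000107), and EPCAM at 203, 184 and 284 against 589.9, 928 and 747 (log2 -1.75, SE 0.23, limma adjusted p = 0.000949). The 2 groups did not overlap for either gene, and EPCAM still exceeded the reference of its own array on 2 of the 3 knockdown arrays. KRT8 was the only other simple epithelium marker called, and it passed in 2 of 6 fits with a single array dropped. OLIG1 fell from 852, 999.7 and 1135 to 296, 346 and 296 (log2 -1.66, SE 0.16, limma adjusted p = 0.000197), GAP43 to 192, 351 and 321 (log2 -1.44, SE 0.24, limma adjusted p = 0.00306), and AQP3 to 769, 761 and 760.1 (log2 -1.28, SE 0.11, limma adjusted p = 0.00014). In the other direction L1CAM, not above the reference in wild type, was at 420.1, 542 and 410.5 (at least 2.69-fold higher with wild type arrays under the reference set to it, limma adjusted p = 0.0025). PTPRO was at 17148, 16321 and 21212 (log2 1.30, SE 0.19, limma adjusted p = 0.00184) and LRP2 at 1225, 1234 and 1508 (log2 1.12, SE 0.18, limma adjusted p = 0.00252). All 8 of these also passed whichever of the 6 arrays compared was dropped. L1CAM had a wild type mean of 7.04 on the log2 scale, under the cut of the filter on low signal, and 8.83 after knockdown. It was tested only because transfected arrays raised its mean over all arrays. Markers as dim in wild type that stayed dim were not tested.

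Markers that were far above the reference level in wild type were found on both sides of the threshold. HOXD11 was higher after knockdown, at 4925, 5333 and 5624 (log2 0.84, SE 0.11, limma adjusted p = 0.000697), as were ISL1, at 6047, 6260.4 and 6360.0 (log2 0.66, SE 0.08, limma adjusted p = 0.000704), and TFAP2A, at 20255, 17987 and 16827 (log2 0.51, SE 0.09, limma adjusted p = 0.00376), each also with any 1 array dropped. LIN28B was at 15859.5, 16052 and 16048 (log2 0.30, SE 0.07, limma adjusted p = 0.0145) but did not pass without knockdown replicate 2 or 3. PAX2, nearer the reference in wild type, was lower after knockdown and passed in all 6 fits with a single array dropped. Its log2 difference in those fits ran from -1.15 to -0.96 (highest limma adjusted p = 0.0239). Among the markers far above the reference that passed in neither comparison were SIX2, SALL1, NEFL, NEFM, INA, TUBB3, UCHL1, VIM, CDH2 and ZEB1, which does not show that they were equal. After overexpression 1 lineage marker of 100 was called, ETV5, a factor downstream of growth factor receptors, at 734, 831 and 1269 against 81.8, 206 and 101 in wild type (at least 5.41-fold higher, limma adjusted p = 0.00731). The bound was made as for L1CAM. As with L1CAM, the wild type mean of ETV5, 6.91 on the log2 scale, was under the cut of the filter on low signal. ETV5 was tested only because transfected arrays raised its mean over all arrays, with 9.84 after overexpression. ETV5 did not pass without overexpression replicate 3 (limma adjusted p = 0.0569, the highest of the 6 such fits). KRTAP19-1, the hair keratin-associated gene, was at 2718, 2906 and 2489 after overexpression against 6123, 6124 and 6130.0 in wild type (log2 -1.18, SE 0.09, limma adjusted p = 0.000226), and this passed whichever of the 6 arrays compared was dropped. It was at 5367, 5410.5 and 5558 after knockdown, which did not pass (log2 -0.17, SE 0.09, limma adjusted p = 0.216). The groups did not overlap in either comparison.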

How the data were processed

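Total RNA of HEK293 cells was biotin labelled and hybridised to 1 oligonucleotide array per sample, per the labels' protocols. The authors deposited 1 linear intensity value for each probe set. Per the submitters' processing notes the tool was MAS5, whose version is not given in the sources used. Detection calls and scans were not used here. Each wild type array had a 2% trimmed mean signal of 1500.2, so the total amount of RNA in a cell is not reflected, and the number of arrays limits the precision.

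Of 54675 probe sets, 62 controls were left out, 41097 had 1 symbol in the platform annotation, 1801 several and 11777 none. Only those with 1 symbol were named, and 41043 matched a RefSeq gene by Entrez ID. Signals were transformed as log2(signal + 1). The reference level was the 95th percentile of 82 olfactory receptor genes on each array. The 23 marker lists, 16 pathway lists and 50 families were chosen with earlier results of these data known. Named genes were the 25 brightest, the 6 brightest members above the reference of each list, members of the kidney, adrenal, epithelial and neuronal lists, the 10 most variable bright genes and the 8 called markers of largest change per comparison, plus, chosen after their values were seen, members that went against the rest of their list and markers of other tissues not above the reference.

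Differences were tested with limma 3.58.1 in R 4.3.3 (lmFit, eBayes with a trend) two-sided, in a single fit of 9 arrays (residual degrees of freedom 6), on the 27307 probe sets whose mean reached the median (7.56 on the log2 scale), with Benjamini-Hochberg adjustment over them. The fit was also tested on simulated data with known changes. Deviations from the group means of same-numbered wild type and knockdown arrays correlated at 0.362, 0.144 and 0.137. For overexpression the correlations were 0.447, 0.160 and 0.083. The main fit paired no arrays in either comparison, and the replicate number entered only in alternative fits. Intervals of motif shares are 95% Wilson intervals over genes, which are not independent. Alternatives tried were other reference levels, the mean over probe sets, no shared-transcript probe sets, quantile normalization, a pseudocount of 16, no filter, a term for replicate 1, the replicate block and leaving out each array.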

Additional observations from a re-analysis of the deposited data

Results flagged for a closer look

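Probe sets that no named gene covers also gave signal in wild type. Of 11721 probe sets without a gene symbol, 2571 (21.9%) were above the reference level on all 3 wild type arrays, against 55.0% of 41091 probe sets with 1 symbol. Of the probe sets with several symbols, 1056 (58.6%) were above it. They were left out of the ranking, and what they read was not tested.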

How the results depend on the processing

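The number of genes above the reference was 11828 and stayed within 1.5 times of that under each of the 9 alternatives run on the levels, as did the 98 lineage markers. It was 11282 with the reference at the 99th percentile, 11338 with taste receptors, keratin-associated proteins and defensins as reference and 10709 with the mean over probe sets. Of 262 lineage markers 222 kept their call under each alternative that gave a value and 40 did not. Of the 98 above the reference 73 kept it. EYA1, FN1 and PERP lost it without probe sets that can read several transcripts, and PAX8, ACTA2, KRT7, ZEB2 and MAP2 with the mean over probe sets. SNAP25 and LUM lost it under 4 alternatives each, SLC18A2 under 3, and SALL4 and CRB3 under 2 each.

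The overexpression count of 76 was 589 with the replicate block and 634 with a term for replicate 1, and 18 to 58 leaving out 1 array. Under both of the former 7 lineage markers of 100 were called in place of 1, against 4.90% and 5.28% of all genes. The count was lowest without overexpression replicate 3 or wild type replicate 2. The knockdown count of 2340 was 4026 with the replicate block and 4029 when replicate 1 had a term, and ranged from 1262 to 1992 leaving out 1 array, lowest without wild type replicate 2. Without the filter the counts were 59 and 1826, and the cause of the other changes was not tested. The share of top 10% promoters with TATAAA was 6.15%, and 6.82% in the top 5%. Below the reference, signals varied too much between arrays to order single genes.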
